A study of Mus musculus with 8 samples.

Results

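The genes examined here are the proteasome subunit genes of the mouse and the genes that share their naming prefix. They were taken as all annotated genes with exons whose symbols begin with Psma, Psmb, Psmc, Psmd, Psme, Psmf or Psmg followed by a digit, with pseudogene symbols left out, and reads were summed over all annotation rows of a gene. This gave 50 of 21991 genes with exons. The prefix also takes in assembly chaperones, activators, an inhibitor and 1 gene that is no part of the proteasome (Psmc3ip). RNA had been sequenced from 2 sorted fractions of C57BL/6 bone marrow, both lineage-negative, c-Kit-positive, Sca1-positive and CD150-positive. The labels call the CD34-negative cells HSC (hematopoietic stem cells) and the CD34-positive cells HPC (hematopoietic progenitor cells). The mice were 8 to 10 weeks old, no treatment or altered allele is given for either fraction, and each fraction has 4 libraries. The protocol names 5000 sorted cells and mentions stem cells only, although it is attached to the libraries of both fractions. The labels do not tie libraries to animals, and the spread behind every p-value here is that of the libraries, which may be technical in part.

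The proteasome is the protease that degrades proteins marked with ubiquitin. Its 20S core is a barrel of stacked rings of alpha and beta subunits, and its 19S cap recognises the ubiquitin mark, unfolds the substrate with a ring of ATPases and feeds it into the barrel. Only a few of the beta subunits cut peptide bonds: Psmb5, Psmb6 and Psmb7 in the constitutive core, and their counterparts Psmb8, Psmb9 and Psmb10 in the immunoproteasome. The immunoproteasome forms are induced by interferon gamma, are abundant in cells of the blood lineage, and shift the peptides made toward ones that fit MHC class I molecules.

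The libraries held 16291733 to 19070313 exon reads in HSC and 18223082 to 20564901 in HPC. Levels are given as CPM, exon reads scaled to library size with TMM factors, and changes as HSC over HPC on the log2 scale with their standard error. A gene is said to have been called, or to have been higher or lower, where edgeR's quasi-likelihood test gave a Benjamini-Hochberg adjusted p under 0.05 over all 12751 genes tested. Of the sort genes, Cd34 measured 102 to 139 CPM in HSC libraries and 1205 to 1342 CPM in HPC libraries. Kit and Ly6a, which encodes Sca1, were present in all 8 libraries. Ly6a was higher in HSC, at 113 to 152 CPM against 61.0 to 79.4 CPM in HPC (log2 0.87, edgeR adjusted p = 3.0e-05). Slamf1, which encodes CD150, lay at 32.1 to 45.5 CPM in HSC but only 2.32 to 3.90 CPM in HPC (log2 3.58, edgeR adjusted p = 6.6e-09), although both fractions are described as CD150-positive. The library numbered 4 of each fraction held the most proteasome reads of its fraction. All 50 genes together took 8958 CPM in HSC library 4 against 7295 to 7872 CPM in the other HSC libraries, and 9437 CPM in HPC library 4 against 7747 to 8331 CPM in the other HPC libraries. Without both of these libraries 2 members were higher and 8 lower in HSC, against 2 and 7 with them.

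Psmb9 and Psmb8 stand side by side on chromosome 17 with the genes of the peptide transporter Tap1 and Tap2. Start regions are shown for Psmb9 and Psmb8 of the immunoproteasome and for Psmb5 and Psmb6 of the constitutive core, as these groups are compared next. Those of Psmb10 and Psmb7 are not shown. The sequences are RefSeq's on GRCm38.p6, lie upstream of the annotated start, end at the base before it and read 5′ to 3′ along the gene's own strand. The Psmb9 sequence is the whole interval of 225 bases between Psmb9 and Tap1, which are transcribed away from each other (chr17:34187331-34187555, minus strand). The Psmb8 sequence is the 250 bases upstream of its start (chr17:34197945-34198194, plus strand). The capitals there mark a match to the gamma-activated site TTCNNNGAA at −97 to −89. The Psmb5 sequence (chr14:54617996-54618095, minus strand) and the Psmb6 sequence (chr11:70525257-70525356, plus strand) are the 100 bases upstream of their starts. The capitals in them mark a match to the antioxidant response element TGACNNNGC, the letters bound by Nrf1 and Nrf2, at −47 to −39 in Psmb5 and at −9 to −1 in Psmb6.
Psmb9: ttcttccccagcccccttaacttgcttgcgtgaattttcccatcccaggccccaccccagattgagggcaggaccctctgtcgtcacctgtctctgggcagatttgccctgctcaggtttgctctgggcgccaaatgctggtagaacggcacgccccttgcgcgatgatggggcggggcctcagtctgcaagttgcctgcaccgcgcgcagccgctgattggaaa
Psmb8: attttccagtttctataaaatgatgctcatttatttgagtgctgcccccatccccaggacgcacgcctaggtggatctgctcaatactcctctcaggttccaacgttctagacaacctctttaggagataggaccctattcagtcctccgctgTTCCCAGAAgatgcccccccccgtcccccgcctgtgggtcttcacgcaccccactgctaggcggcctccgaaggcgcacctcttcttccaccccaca
Psmb5: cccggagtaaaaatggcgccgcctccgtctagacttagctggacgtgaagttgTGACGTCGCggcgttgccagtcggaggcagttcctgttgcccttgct
Psmb6: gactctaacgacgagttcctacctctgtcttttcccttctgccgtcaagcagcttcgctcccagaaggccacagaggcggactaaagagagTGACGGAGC

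Searched on both strands in windows from 250 bases before to 50 bases after the start, TTCNNNGAA was present in 8.3% of 32851 RefSeq promoters and TGACNNNGC in 12.4%. Windows were held for 42 of the 50 members, 45 windows in all. TTCNNNGAA was found for 3 of them (Psmb8, Psmd2 and Psmg1) and TGACNNNGC for 6 (Psmb5, Psmb6, Psmc6, Psmd12, Psmd9 and Psme4). Psmb10 and Psmb7, whose start regions are not shown, are in neither list. A match describes the letters only, and neither motif is present in the Psmb9 interval as printed.

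The comparison asks whether proteasome genes differ between the stem cell and the progenitor fraction. Most had no call, which does not show that their levels were equal. Of the 49 members tested, 2 were higher in HSC (Psma8 and Psmf1), 7 were lower (Psma1, Psmb8, Psmb9, Psmc3ip, Psmd13, Psme1 and Psme2b) and 40 had no call. The share called was 18.4%, against 37.1% of all genes tested, of which 19.6% were higher and 17.6% lower. The HSC and HPC libraries did not overlap for 10 members, against 36.7% of all genes. These were the called genes other than Psmd13, with Psmd1 and Psmd5. The median log2 change of the members was −0.07, against 0.00 over all genes, and 45 of 49 lay within 0.5 of 0. The change was below 0 for 34 members and above 0 for 15. Upper quartile scaling moved all genes up by a median of 0.08, and the split became 4 higher and 4 lower, with Psmd5 and Psmd7 gained and Psmd13, Psme1 and Psme2b lost. In bulk samples, less RNA per cell and fewer cells that carry it cannot be told apart.

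**Figure D1:**
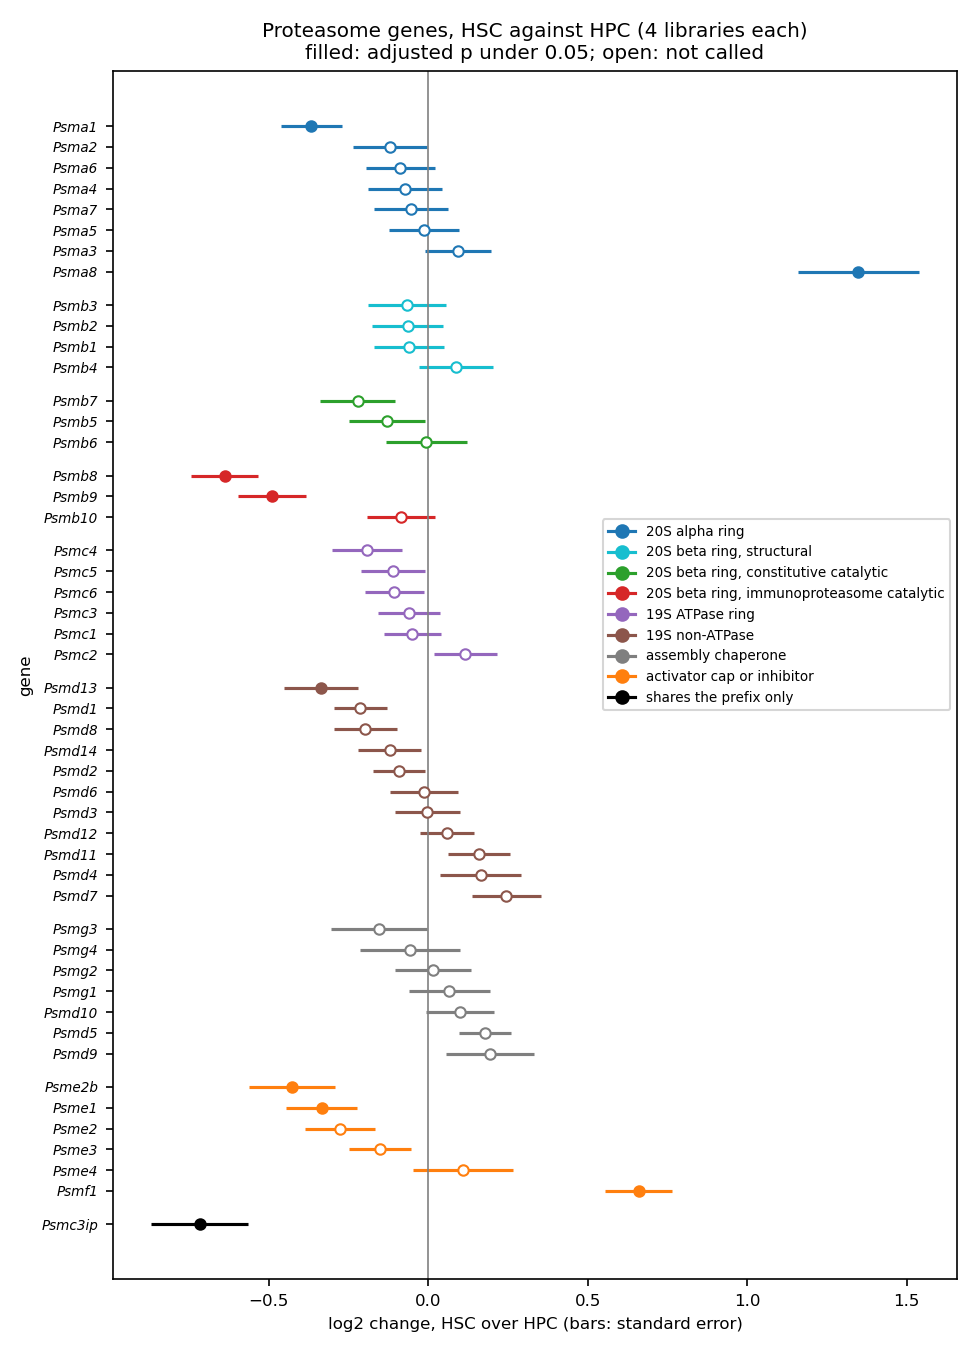
Log2 change of HSC over HPC (x axis) for the 49 proteasome genes tested, grouped by role and sorted within a role. Points are edgeR estimates from 4 libraries a fraction, bars are standard errors, and filled points have an adjusted p under 0.05. Most points lie close to 0, with Psma8 at 1.35 and Psmf1 at 0.66 on the right and Psmc3ip at −0.72 and Psmb8 at −0.64 on the left.

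Of the 3 immunoproteasome catalytic subunits, Psmb8 and Psmb9 were lower in HSC and Psmb10 had no call, and none of the 3 constitutive counterparts was called. Psmb8, the counterpart of Psmb5 with chymotrypsin-like activity (NCBI gene 16913, chromosome 17, 34198195 to 34201454), measured 408, 390, 349 and 447 CPM in HSC libraries 1 to 4. It measured 607, 646, 542 and 690 CPM in HPC libraries 1 to 4. Every HSC library lay below every HPC library. The HSC mean was 399 ± 40.7 CPM and the HPC mean 621 ± 62.8 CPM (SD, n = 4 each), 1.56-fold higher in HPC (log2 −0.64 ± 0.10, edgeR adjusted p = 0.00022). Psmb9, the counterpart of Psmb6 (gene 16912, chromosome 17, 34182030 to 34187330), measured 82.3, 66.3, 65.8 and 73.3 CPM in HSC. In HPC it measured 95.5, 95.5, 98.0 and 115 CPM, again with no overlap. It was 1.41-fold higher in HPC (log2 −0.49 ± 0.11, edgeR adjusted p = 0.0021). Psmb10, the counterpart of Psmb7 with trypsin-like activity (gene 19171, chromosome 8, 105935728 to 105938454), measured 141, 126, 146 and 169 CPM in HSC and 159, 161, 132 and 165 CPM in HPC. Its libraries overlapped across the fractions (log2 −0.09 ± 0.11, edgeR adjusted p = 0.57).

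The reads of Psmb8 and Psmb9 are hard to place uniquely, since the mouse assembly holds alternate copies of this stretch of chromosome 17. The column of uniquely placed exon reads holds 0 for Psmb8 in every library, and 4.89% of the exon reads of Psmb9. On unique reads Psmb8 could not be tested, and Psmb9 kept its direction without a call (log2 −0.41, edgeR adjusted p = 0.27). On rows of the main assembly alone both stayed lower in HSC. How the authors shared out reads that match several rows is not stated, and it bears on every level set between genes. The main row of Psmb8 and its alternate copy held 5741 and 5726 exon reads in HPC library 1, and their counts were unequal in all 8 libraries. Not every read was therefore counted at both rows. Levels here are sums over the rows. The main row of Psmb8 holds 49.8% of its reads, that of Psmb6 50.3% and that of Psmb9 65.2%, and levels on main-assembly rows leave out the rest.

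Psmb5 (gene 19173, chromosome 14, 54614120 to 54617995) measured 110, 92.6, 86.6 and 114 CPM in HSC and 106, 104, 99.1 and 132 CPM in HPC. Its log2 change was −0.13 ± 0.12 (edgeR adjusted p = 0.44). Psmb6 (gene 19175, chromosome 11, 70525357 to 70527858), which cuts after acidic residues, measured 257, 245, 260 and 350 CPM in HSC and 278, 301, 228 and 310 CPM in HPC (log2 −0.01 ± 0.13, edgeR adjusted p = 0.98). Psmb7 (gene 19177, chromosome 2, 38588046 to 38643952) measured 97.2, 86.4, 81.2 and 108 CPM in HSC and 107, 91.4, 113 and 123 CPM in HPC (log2 −0.22 ± 0.12, edgeR adjusted p = 0.16). The fractions overlapped for all 3. Psmb6, like Psmb8, had no uniquely placed exon reads.

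**Figure D2:**
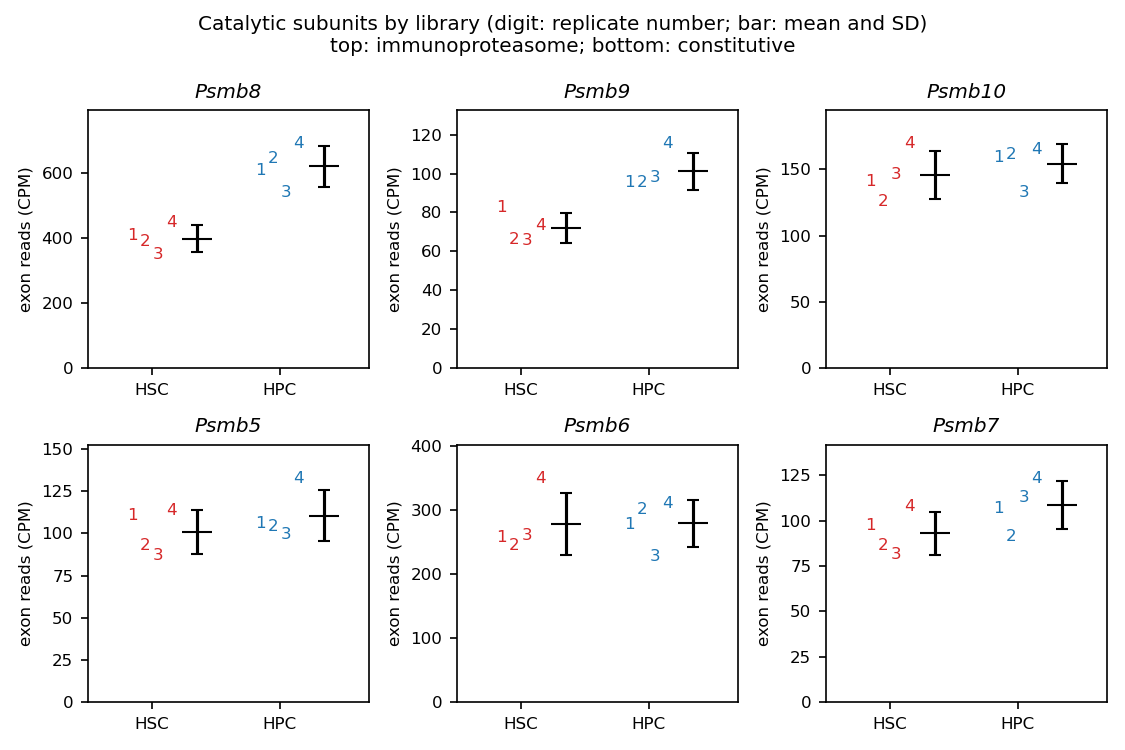
Exon reads in CPM (y axis, from 0) of the 3 immunoproteasome subunits (top) and the 3 constitutive catalytic subunits (bottom) in each library. Digits are replicate numbers, and bars are the mean and SD of 4 libraries. HSC libraries lie below all HPC libraries for Psmb8 and Psmb9, and the fractions overlap in the other 4 panels.

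Levels of different genes were set against each other only after division by exon length. Summed over its rows, Psmb8 had the highest level per kilobase of all members in both fractions, at 326 ± 33.3 CPM per kb in HSC and 508 ± 51.4 CPM per kb in HPC. This rank depends on the summing. On main-assembly rows, without the reads placed at its alternate copy, Psmb8 stood at 162 ± 13.9 CPM per kb in HSC, where it ranked 12. In HPC it stood at 253 ± 23.4 CPM per kb on those rows and ranked 4. Summed over rows, Psmb9 stood at 67.9 ± 7.30 and 95.4 ± 8.97 CPM per kb and Psmb10 at 93.5 ± 11.6 and 99.3 ± 9.59 CPM per kb, in HSC and HPC. Among the constitutive subunits Psmb6 was highest, at 268 ± 46.6 CPM per kb in HSC and 269 ± 35.2 CPM per kb in HPC. The 3 immunoproteasome genes together made up 51.8%, 52.1%, 50.8% and 48.8% of the length-scaled reads of the 6 catalytic genes in HSC libraries 1 to 4. They made up 58.4%, 59.3%, 58.5% and 57.8% in HPC libraries 1 to 4, so that no HSC library reached the lowest HPC library. The means were 50.9% ± 1.49 in HSC and 58.5% ± 0.60 in HPC (SD, n = 4 each), given as a description with no test. On main-assembly rows the shares were 47.2% ± 1.58 and 53.2% ± 1.18, again without overlap. Of the 6 catalytic genes Psmb8 differed most between the fractions per kilobase, and none of its exon reads was uniquely placed.

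Ratios within a library do not depend on scaling. Per kilobase and summed over rows, Psmb8 exceeded Psmb5 2.63-fold, 3.003-fold, 2.87-fold and 2.81-fold in HSC libraries 1 to 4, and 4.09-fold, 4.44-fold, 3.89-fold and 3.71-fold in HPC libraries 1 to 4. The fractions did not overlap, and the log2 ratio was lower in HSC by a mean difference of −0.51 ± 0.07 (SE; two-sided exact permutation p = 0.0286, the smallest that 4 against 4 allows, adjusted p = 0.0857 over 3 pairs). On main-assembly rows the ratio was 1.32 to 1.51 in HSC and 1.83 to 2.21 in HPC, with a log2 difference of −0.51 as before. The ratio of Psmb9 to Psmb6 was 0.313, 0.264, 0.247 and 0.205 in HSC and 0.336, 0.311, 0.420 and 0.363 in HPC. It differed by −0.48 ± 0.16 on the log2 scale (exact permutation p = 0.0571, adjusted p = 0.0857), with HSC library 1 just above HPC library 2. The ratio of Psmb10 to Psmb7 was 0.988 to 1.22 in HSC and 0.798 to 1.20 in HPC (log2 difference 0.13 ± 0.14, exact permutation p = 0.429). None of the 3 ratios passed after adjustment, and with 3 pairs no single pair can pass alone at this number of libraries. Without HSC library 1 the first 2 ratios passed (log2 differences −0.48 and −0.58, exact permutation adjusted p = 0.0429 each). That library held the only overlap of Psmb9 to Psmb6, so its omission removed the overlap. No other alternative gave a pass. Within the immunoproteasome, the ratio of Psmb8 to Psmb10, examined after the values were seen and given without a test, was 3.04 to 3.95 in HSC and 4.85 to 5.31 in HPC (1.54 to 1.99 and 2.43 to 2.62 on main-assembly rows).

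Psmb11, the catalytic subunit of the thymus form of the proteasome, did not pass the filter on low counts. It had 0 reads in all HSC libraries and in 3 HPC libraries, and 0.099 CPM in HPC library 2. Psmb11 lies 7314 bases from Psmb5 on chromosome 14.

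The alpha subunits form the outer rings of the core and its gate. Of the 7 constitutive alpha genes, Psma1 was lower in HSC (14.3%, against 17.6% of all genes tested). The other 6 had no call, with log2 changes from −0.12 (Psma2) to 0.09 (Psma3). Of the exon reads of Psma3, 28.5% were uniquely placed. Psma1 (gene 26440, chromosome 7, 114264550 to 114276116) measured 204, 191, 193 and 235 CPM in HSC and 265, 250, 252 and 293 CPM in HPC. The HSC libraries all lay below the HPC libraries, though HSC library 4 came close to HPC library 2. Its level was 1.29-fold higher in HPC (log2 −0.37 ± 0.10, edgeR adjusted p = 0.0077). Psma5 had the highest length-scaled level of the alpha genes, at 215 ± 30.7 CPM per kb in HSC and 218 ± 19.02 CPM per kb in HPC (log2 change −0.01, edgeR adjusted p = 0.94). Psma7, which takes the alpha4 place, measured 313, 313, 297 and 401 CPM in HSC and 343, 343, 292 and 397 CPM in HPC, with no call.

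Psma8, the paralogue of Psma7 known from the testis form of the core (gene 73677, chromosome 18, 14706135 to 14762301), was the member with the largest change. It measured 17.7, 17.4, 13.0 and 13.5 CPM in HSC and 6.08, 6.11, 5.41 and 6.57 CPM in HPC. All HSC libraries lay above all HPC libraries, 2.55-fold on the means (log2 1.35 ± 0.19, edgeR adjusted p = 5.6e-05). Its level stayed low beside Psma7. Its level per kilobase was 7.81 ± 1.26 CPM in HSC against 3.06 ± 0.24 CPM in HPC, beside 208 ± 29.6 and 216 ± 27.1 CPM for Psma7. Psma8 made up 3.68% of the length-scaled reads of these 2 genes in HSC and 1.40% in HPC. All of its exon reads were uniquely placed.

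The 4 structural beta genes, Psmb1, Psmb2, Psmb3 and Psmb4, complete the inner rings without cutting. None was called, and their log2 changes ran from −0.07 (Psmb3) to 0.09 (Psmb4) with standard errors of 0.11 to 0.12. Psmb2 had the highest length-scaled level, at 285 ± 39.1 CPM per kb in HSC and 299 ± 33.5 CPM per kb in HPC, and Psmb4 the lowest, at 125 ± 15.2 and 117 ± 15.7 CPM per kb. Of the 14 genes of the constitutive core 7.14% were called, against 37.1% of all genes tested. Over the 14, 1 was lower, none was higher and the median log2 change was −0.07. Their length-scaled levels differed among themselves by a coefficient of variation of 33.5% ± 2.85 in HSC and 33.0% ± 3.42 in HPC libraries (SD, n = 4 each). Core subunits occur in equal numbers in the particle, while these RNA levels spanned from 88.1 CPM per kb (Psmb7) to 285 CPM per kb (Psmb2) in HSC.

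In the 19S cap, the ATPases Psmc1 to Psmc6 unfold the substrate and open the gate of the core. None of the 6 was called, with a median log2 change of −0.08 and a range from −0.19 (Psmc4) to 0.12 (Psmc2). Psmc1 had the highest length-scaled level, at 147 ± 10.2 CPM per kb in HSC and 152 ± 10.2 CPM per kb in HPC. Psmc6 had the lowest in HSC, at 83.6 ± 4.83 CPM per kb, and Psmc2 in HPC, at 83.9 ± 5.52 CPM per kb. Psmc6 measured 131 ± 7.55 CPM in HSC against 141 ± 12.8 CPM in HPC. Psmc2 measured 162 ± 18.8 CPM against 150 ± 9.84 CPM, and neither was called.

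The non-ATPase genes of the cap hold the ubiquitin receptors, scaffolds and the deubiquitinase. Of 11, Psmd13 was lower in HSC and 10 had no call, with a median log2 change of −0.01. This is a share of 9.09% called, against 37.1% of all genes tested. Psmd13, a lid subunit (gene 23997, chromosome 7, 140882394 to 140898642), measured 102, 76.5, 88.1 and 106 CPM in HSC and 117, 103, 118 and 132 CPM in HPC. HSC library 4 lay above HPC library 2, and the other HSC libraries lay below all of HPC (log2 −0.34 ± 0.12, edgeR adjusted p = 0.034). The call was lost in 7 of 18 alternatives, among them upper quartile scaling and the omission of HPC library 1, 3 or 4 or of HSC library 2 or 3. Psmd1, the largest scaffold of the base, measured 169, 167, 163 and 166 CPM in HSC and 192, 176, 203 and 199 CPM in HPC. These libraries did not overlap, yet the gene missed the threshold (log2 −0.21 ± 0.08, edgeR adjusted p = 0.057), and it had the lowest length-scaled level of the group, at 51.0 and 59.1 CPM per kb. Psmd7, a lid subunit that pairs with the deubiquitinase Psmd14, had the highest, at 169 ± 24.5 CPM per kb in HSC and 143 ± 12.1 CPM per kb in HPC. Its log2 change was 0.25 ± 0.11 (edgeR adjusted p = 0.096). The ubiquitin receptor Psmd4 measured 177 ± 30.4 CPM in HSC against 158 ± 21.2 CPM in HPC, and the deubiquitinase Psmd14 174 ± 12.2 against 189 ± 21.1 CPM, with no call for either. Over the 31 constitutive genes of core and cap, 2 were lower and none higher, with log2 changes from −0.37 to 0.25 and standard errors of 0.08 to 0.13. Their share called was 6.45%, against 37.1% of all genes tested.

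**Figure D3:**
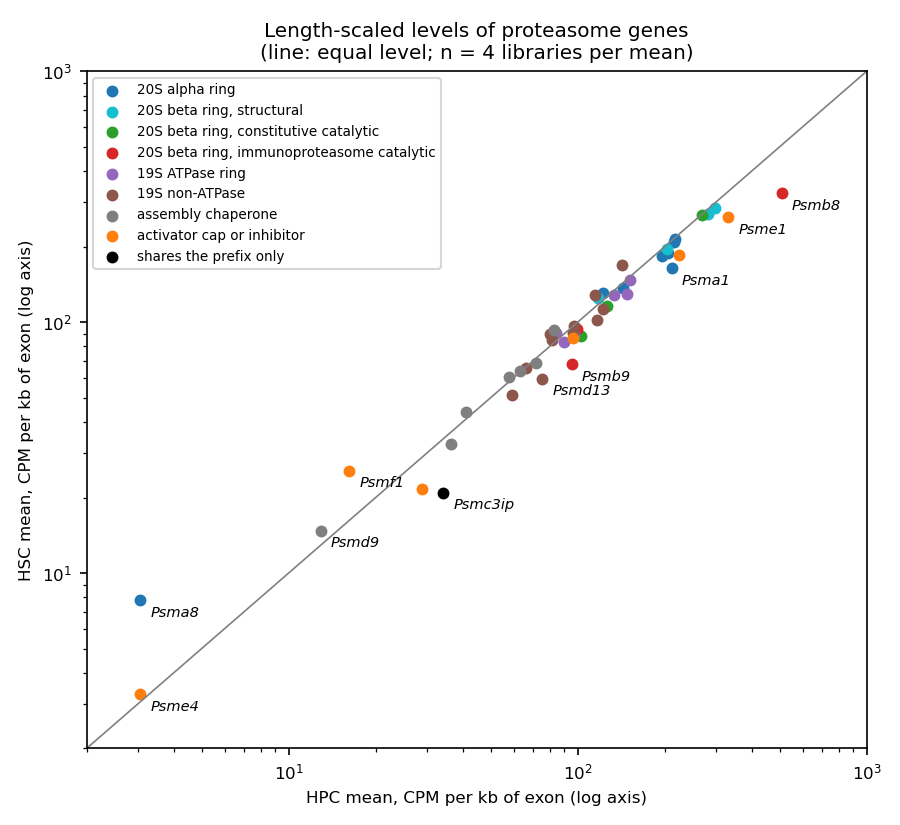
Mean length-scaled level of each tested member in HPC (x axis) and HSC (y axis), both in CPM per kb of exon on log axes, coloured by role, with the line of equal level. With reads summed over annotation rows, Psmb8 lies farthest to the upper right at 508 and 326 CPM per kb and below the line (253 and 162 on main-assembly rows, where it is not the farthest point), Psma8 lies above the line at 3.06 and 7.81 CPM per kb, and most core and cap genes follow the line.

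The assembly chaperones help build the core (Psmg1 to Psmg4) or the base of the cap (Psmd5, Psmd9 and Psmd10) and leave the finished particle. None of the 7 was called, with a median log2 change of 0.07 and a range from −0.15 (Psmg3) to 0.19 (Psmd9). Psmd5 had the highest length-scaled level, at 93.4 ± 4.68 CPM per kb in HSC and 82.6 ± 1.84 CPM per kb in HPC. Its libraries measured 184, 195, 203 and 182 CPM in HSC and 172, 165, 167 and 172 CPM in HPC, without overlap, yet it missed the threshold (log2 0.18 ± 0.08, edgeR adjusted p = 0.10). Psmd9 had the lowest, at 14.7 ± 2.05 and 12.9 ± 1.48 CPM per kb. Psmg1 and Psmd10 had no uniquely placed exon reads, and 48.4% of those of Psmg3 were uniquely placed.

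The caps that replace the 19S particle, and the inhibitor that competes with them, split in direction. Psme1 and Psme2 encode the alpha and beta subunits of PA28, a ring that is induced by interferon gamma and works with the immunoproteasome. Psme2b is named as a copy of Psme2, and how alike they are was not measured here. Psme1 (gene 19186, chromosome 14, 55578494 to 55581527) measured 281, 237, 218 and 290 CPM in HSC and 325, 297, 304 and 368 CPM in HPC, with a narrow gap between HSC library 4 and HPC library 2. It was 1.26-fold higher in HPC (log2 −0.33 ± 0.11, edgeR adjusted p = 0.027). Psme2 measured 179, 168, 165 and 212 CPM in HSC and 223, 208, 192 and 255 CPM in HPC. HSC library 4 overlapped the HPC range, and the gene had no call (log2 −0.28 ± 0.11, edgeR adjusted p = 0.064), although it passed with the replicate number as a block (log2 −0.28, edgeR adjusted p = 0.012). Psme2b (gene 621823, chromosome 11, 48945345 to 48946410) measured 20.8, 21.4, 21.8 and 27.8 CPM in HSC and 33.4, 30.5, 29.6 and 30.3 CPM in HPC (log2 −0.43 ± 0.13, edgeR adjusted p = 0.022). Not all exon reads of Psme2 and Psme2b were uniquely placed (80.9% and 80.3%), and whether the rest match the other gene of the pair was not measured. Psme2b also overlaps another gene on its strand, so its level is uncertain. The calls of Psme1 and Psme2b were lost in 6 of 18 and 6 of 17 alternatives, in each case including upper quartile scaling and the omission of HPC library 1 or of HSC library 2 or 3.

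Psme3, the nuclear PA28 gamma, had no call, with 239 ± 14.5 CPM in HSC against 266 ± 27.9 CPM in HPC (log2 −0.15 ± 0.10). Psme4, which encodes the activator PA200, had the lowest length-scaled level of the group at 3.30 ± 0.57 and 3.06 ± 0.36 CPM per kb, with no call (log2 0.11 ± 0.16). Psme4 overlaps Erlec1 on the opposite strand, and no source used here says whether counting used strand. Psmf1, which encodes the inhibitor PI31 (gene 228769, chromosome 2, 151716062 to 151744189), measured 88.8, 91.8, 92.8 and 110 CPM in HSC. In HPC it measured 63.7, 63.1, 54.3 and 61.4 CPM, and the fractions lay far apart. The HSC mean exceeded the HPC mean 1.58-fold (log2 0.66 ± 0.10, edgeR adjusted p = 0.00016).

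Psmc3ip carries the prefix for its binding to Psmc3 and is known as a partner of the recombinases in meiosis. It measured 20.6, 17.8, 19.3 and 25.4 CPM in HSC and 35.9, 35.5, 27.3 and 37.8 CPM in HPC (gene 19183, chromosome 11, 101092141 to 101095435). The fractions did not overlap, and the level was 1.64-fold higher in HPC (log2 −0.72 ± 0.15, edgeR adjusted p = 0.0018). Its gene overlaps Mlx by 67 bases on the opposite strand.

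Intron reads come from the same libraries and mostly from unspliced RNA. Of 48 members tested on them, 2 were higher in HSC and 2 lower, while 21% of all 12710 genes tested were called, 11% higher and 10% lower. The median log2 change of the members was −0.15, against 0.01 over all genes. Psma8 was higher in introns as in exons, with 78 to 156 intron reads in HSC libraries and 42 to 91 in HPC libraries (log2 1.05 ± 0.32, edgeR adjusted p = 0.030). Psmd13 was lower in both, with 221 to 275 against 301 to 440 intron reads (log2 −0.61 ± 0.16, edgeR adjusted p = 0.013). Psmd14, which had no call in exons, was lower in introns, with 214 to 402 against 393 to 532 reads (log2 −0.52 ± 0.16, edgeR adjusted p = 0.031). Psmd10 had 21 to 46 intron reads in HSC libraries, 7 in HPC library 1 and 0 in the other HPC libraries (log2 4.24 ± 0.92, edgeR adjusted p = 0.0032), none of them uniquely placed. Psmd10 overlaps Atg4a on the opposite strand by 2819 bases, so the source of these reads cannot be told apart. Introns of Psmb8 held 40 to 99 reads in HSC and 60 to 96 in HPC, with no call (log2 −0.23 ± 0.34). Those of Psmb9 held 360 to 565 and 422 to 599 reads, also with no call (log2 −0.17 ± 0.15). The intron call of Psmd13 was kept in every omission of a single library. That of Psma8 was lost without HPC library 1, 2 or 4 or HSC library 1 or 2, and that of Psmd14 without HPC library 1 or 3 or HSC library 2 or 4.

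The partners of the proteasome outside the prefix were read from the same fit. Of 31 genes found for the list of 34 symbols, 14 were called, 9 of them higher in HSC and 5 lower. The share called was 45.2%, against 37.1% of all genes, and the median log2 change was 0.10, against 0.00. Among 18 subunits, shuttles, deubiquitinases and chaperones with other names, 4 were higher and 1 was lower. Ublcp1, a phosphatase that acts on the 19S cap, measured 36.7, 31.6, 28.7 and 34.9 CPM in HSC and 8.25, 7.05, 8.58 and 10.0 CPM in HPC, without overlap (log2 1.96 ± 0.16, edgeR adjusted p = 2.4e-07). The ubiquitin shuttle Ubqln2 was higher by 0.54 ± 0.09, Txnl1, a thioredoxin-like protein of the cap, by 0.45 ± 0.11 and Zfand5, an activator of the particle, by 0.32 ± 0.08 on the log2 scale. The cap's deubiquitinase Uchl5 was lower, at 128, 142, 130 and 164 CPM in HSC and 188, 194, 175 and 217 CPM in HPC (log2 −0.46 ± 0.10, edgeR adjusted p = 0.0029). The cap's receptor Adrm1 (log2 0.12 ± 0.10, 46.4% of exon reads uniquely placed) and the core's assembly factor Pomp (log2 0.03 ± 0.12) had no call.

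Proteasome subunit genes are known targets of the transcription factor Nrf1, encoded by Nfe2l1, and of Nrf2, encoded by Nfe2l2. Of the 4 genes of this route 2 were higher in HSC, or 50%, against 19.6% of all genes tested. Nfe2l2 measured 166, 152, 187 and 189 CPM in HSC and 121, 120, 120 and 117 CPM in HPC, without overlap (log2 0.54 ± 0.09, edgeR adjusted p = 0.00032). Ngly1, which removes sugars from Nrf1, was higher by 0.32 ± 0.10 on the log2 scale (edgeR adjusted p = 0.018), and its call was lost without HPC library 4, HSC library 2 or HSC library 3. Nfe2l1 had no call, with 103 ± 7.90 CPM in HSC against 108 ± 19.3 CPM in HPC, nor had Ddi2, the protease of Nrf1 (log2 −0.15 ± 0.19).

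Interferon gamma acts on Psmb8, Psmb9 and Psmb10 through its receptor and the kinases Jak1 and Jak2, and Irf1 and Nlrc5 are transcriptional regulators of this response. Of 6 genes examined, 3 were higher in HSC (Ifngr1, Jak1 and Jak2) and 2 were lower (Ifngr2 and Irf1), and Nlrc5 had no call. That is 83.3% called, against 37.1% of all genes tested. On intron reads Nlrc5 was higher in HSC (log2 0.50 ± 0.12, edgeR adjusted p = 0.0057). Ifngr2 was lower on them (log2 −0.84 ± 0.23, edgeR adjusted p = 0.015), and the other genes of this list had no intron call. Irf1 measured 121, 105, 106 and 113 CPM in HSC and 136, 119, 154 and 160 CPM in HPC, with HSC library 1 just above HPC library 2 (log2 −0.35 ± 0.11, edgeR adjusted p = 0.016). Jak2 was higher by 0.67 ± 0.16, Jak1 by 0.30 ± 0.10 and Ifngr1 by 0.26 ± 0.09, and Ifngr2 had a log2 change of −0.42 ± 0.12. The calls of Ifngr1 and Jak1 were lost in 10 and 9 of 18 alternatives. That of Irf1 was lost in 3 of 18 (upper quartile scaling, without HSC library 2, and without both libraries numbered 4) and that of Ifngr2 in 1 (without both libraries numbered 4).

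The genes next to Psmb8 and Psmb9 carry peptides into the endoplasmic reticulum. Tap1 measured 143, 133, 147 and 152 CPM in HSC and 239, 220, 187 and 200 CPM in HPC, without overlap (log2 −0.56 ± 0.10, edgeR adjusted p = 0.00034). Tap2, whose start lies 3024 bases beyond Psmb8, measured 183, 199, 208 and 205 CPM in HSC and 425, 398, 346 and 338 CPM in HPC (log2 −0.92 ± 0.10, edgeR adjusted p = 3.8e-06). Psmb9, Tap1, Psmb8 and Tap2, which follow each other on chromosome 17, were therefore all lower in HSC. Tapbp, which bridges the transporter to MHC class I, had no call (log2 0.16 ± 0.09, edgeR adjusted p = 0.17). Like Psmb8, these 3 genes had no uniquely placed exon reads.

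**Figure D4:**
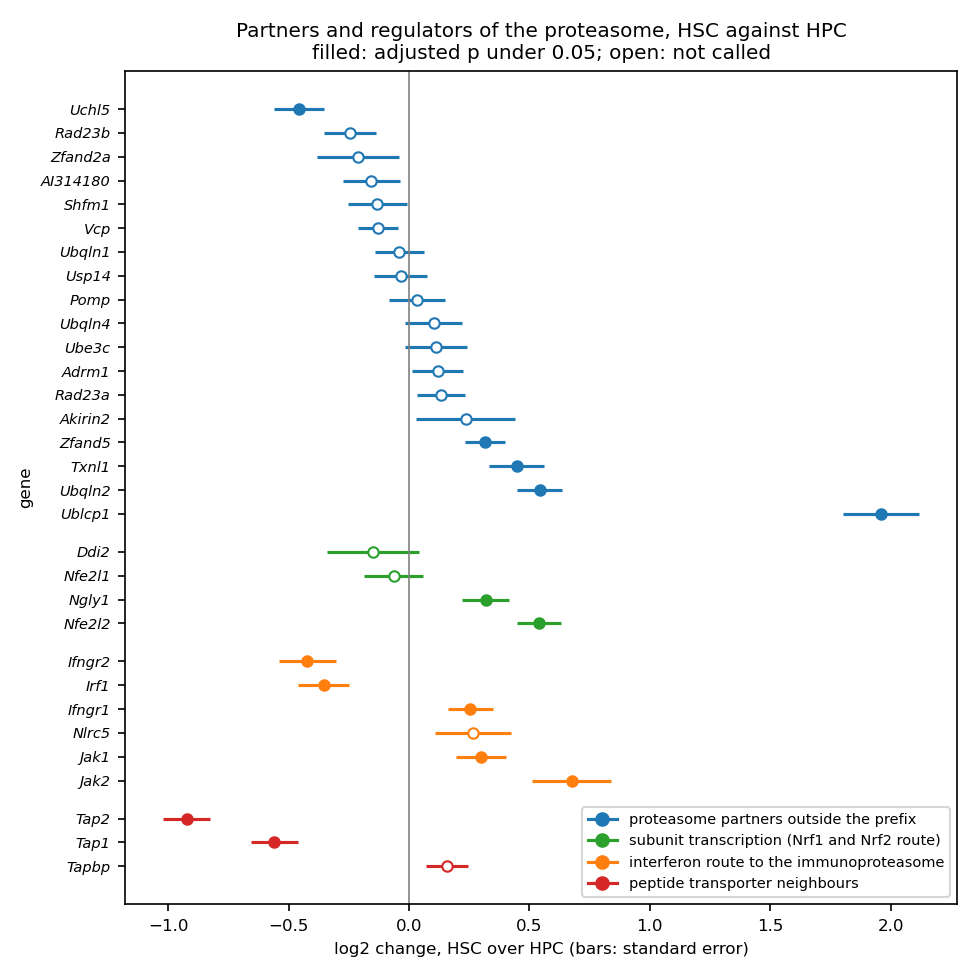
Log2 change of HSC over HPC (x axis) for 31 partners and regulators of the proteasome, coloured by list. Points are edgeR estimates from 4 libraries a fraction, bars are standard errors, and filled points have an adjusted p under 0.05. Ublcp1 stands apart at 1.96, Tap2 and Tap1 lie at −0.92 and −0.56, and the interferon route holds filled points on both sides of 0.

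Markers of mature cells moved between the fractions beside these genes. Immunoproteasome genes are abundant in several of these cells, and the markers' part in the results was not tested. For comparison, 19.6% of all genes tested were higher in HSC and 17.6% lower. Of 6 dendritic cell markers 2 were lower in HSC and 1 higher, with summed levels of 12.6 to 18.2 CPM in HSC and 29.2 to 38.5 CPM in HPC. Most of the HPC sum was Ccr9, a lower gene, with means of 5.79 CPM in HSC and 21.9 CPM in HPC. All 5 mast cell and basophil markers were lower in HSC, at 5.49 to 38.0 CPM against 78.6 to 198 CPM. The T and NK cell list had 5 of its 7 genes higher in HSC, at 46.6 to 65.4 CPM against 16.8 to 25.1 CPM, and of 6 B cell markers 2 were higher, at 58.9 to 78.8 CPM against 52.3 to 61.9 CPM. Of 8 neutrophil and monocyte markers 1 was lower and 3 were too low to test, at 176 to 257 CPM in HSC and 195 to 365 CPM in HPC, with Ly6g at 0 in all libraries. Of 6 red cell markers 3 were higher in HSC, at 181 to 453 CPM against 40.8 to 159 CPM.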

How the data were processed

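Total RNA of 4 HSC and 4 HPC libraries was measured by RNA-seq after 18 cycles of cDNA amplification, per the labels' protocols. Genome build mm10 is named in the submitters' processing notes, but no source used here gives the aligner, the counter or its use of strand. For each annotation row the authors deposited counts, whole numbers of exon, intron and exon-exon reads, in a column for all reads and a column for unique ones. The deposited RPKM and TPM values, scaled by the authors to library size and exon length, were not used. PCR copies were counted as reads.

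Total exon reads were summed per gene ID over the rows with exons. The test was that of edgeR 4.0.16 under R 4.3.3 (filterByExpr, TMM, quasi-likelihood F test, no covariate, Benjamini-Hochberg over 12751 genes, threshold 0.05), and intron reads likewise over 12710 genes. Standard errors are the log2 change over the root of the F statistic. The biological coefficient of variation was 18.3%. Ratios were compared by a two-sided exact permutation test over libraries. In each group no pair of libraries looked like 1 library deposited again (mean chi-square per gene 11.5 to 38.1 over 12 pairs). On simulated counts for this comparison with 12751 genes, edgeR recovered 56 of 100 genes at a true 1.5-fold change and 92 of 100 at 2-fold, and 7 of 155 calls were false. Only these genes were changed in the simulation, while 37.1% of all genes were called in the data, so recovery in the data may differ. The changed genes were drawn from genes of many levels, so the recovered shares are not those of proteasome genes. Standard errors of the 49 members tested were 0.08 to 0.19.

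The members and lists were chosen with earlier results of these data known. Values are given for the catalytic subunits, every called member, the highest and lowest length-scaled member of each role, members that failed the filter and the called pathway genes. Other members were named after their values were seen. 1 further gene is not reported here. Of 34 pathway symbols 31 were found, 2 others being alternative names of found genes. Promoter windows come from RefSeq (GRCm38.p6), and 33 of 50 members have the same start and end there as in the files, among them the 4 shown.

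Alternatives were upper quartile or RLE scaling, dropping the filter or raising it to 50 reads in 4 libraries, a block for the replicate number, DESeq2 1.42.0, unique reads, main-assembly rows, exon scaling for intron reads, and leaving out each library. Exon-exon reads and leaving out both libraries numbered 4 were added after seeing the data.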

Additional observations from a re-analysis of the deposited data

Results flagged for a closer look

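In 132 groups of 4 libraries checked, 9 held a library far from the other 3, and chance alone gives about 1 in 20. Of the 9, 8 are libraries numbered 4, which hold the most proteasome reads of their fraction. HSC library 4 stood high for Psma7 at 400.6 CPM against 297 to 313 in the other HSC libraries. It also stood high for Psmb6 at 350 CPM against 245 to 260, for Psmc2 at 190.0 CPM against 149.97 to 155, for Psmd4 at 222 CPM against 155 to 167, and for Psme2b at 27.8 CPM against 20.8 to 21.8.

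HPC library 4 stood high for Psma4 at 219.6 CPM against 158 to 165 in the other HPC libraries, and for Psmd14 at 220.2 CPM against 176 to 180.2. For Psmb9 it measured 115 CPM against 95.5 to 98.0, so it widens the difference between the fractions. Without HPC library 4, and in each of the other omissions of 1 library, Psmb9 stayed lower in HSC. HPC library 1 was low for Jak2, at 31.9 CPM against 51.9 to 55.7.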

How the results depend on the processing

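Psma8, Psmf1, Psma1 and Psmc3ip kept their direction and call in all 18 alternatives, Psmb8 in all 17 that could test it, and Psmb9 in 17 of 18. Among members, upper quartile scaling gave 4 higher and 4 lower, unique reads 4 lower of 45 tested, and exon-exon reads 4 lower of 48. Leaving out single libraries gave 2 to 3 higher and 4 to 9 lower, with 4 lower without HPC library 1, HSC library 2 or HSC library 3. The median log2 change of the members ran from −0.14 to 0.01 over these omissions, and was 0.01 with upper quartile scaling. Among pathway genes, unique reads and the omission of both libraries numbered 4 gave 3 lower each, and single omissions gave 6 to 8 higher and 4 to 6 lower. For intron reads, omitting both libraries numbered 4 and exon scaling each gave 1 higher and 1 lower, unique reads and the replicate block 1 higher, and single omissions 1 to 2 in each direction. The ratio of Psmb8 to Psmb5 differed by −0.55 to −0.46 (log2) over single omissions, that of Psmb9 to Psmb6 by −0.58 to −0.38, and that of Psmb10 to Psmb7 by 0.04 to 0.24. Without HSC library 1, which held the only overlap of Psmb9 to Psmb6, the first 2 passed at −0.48 and −0.58. For these the exact permutation adjusted p was 0.0429, where 3 against 4 allows 0.0286 unadjusted, and no other alternative gave a pass. The cause of these changes was not tested, except that unique reads leave 4 members and 3 transporter genes untested.

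With the replicate number as a block, 3 members were higher and 8 lower. Deviations of same-numbered libraries correlated at −0.01, −0.12, 0.09 and 0.15 across genes, and those of differently numbered libraries at −0.20 to 0.07. Such weak correlations cannot tell whether the numbers pair the samples, and the libraries numbered 4 held the most proteasome reads in both fractions. Changes of 1.5-fold were recovered less often than 2-fold changes in simulated counts, so smaller differences may go uncalled at this number of libraries.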
